A study of Homo sapiens with 3 samples.

Results

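The genes described here encode chaperones and close partners of protein folding in the endoplasmic reticulum (ER): HSPA5, HSP90B1, PDIA4, DNAJB9, DNAJC3, HERPUD1, XBP1, SDF2L1, CALR and CANX. They were chosen by name for their known role, with earlier results of these data already known. All 10 were found among the 25242 gene symbols used. Each of the 10 also passed the filter on low values, a mean of at least 1 FPKM (fragments per kilobase of transcript, scaled to the number of fragments mapped) over the libraries, which kept 12192 genes.

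The study compared the human hepatocellular carcinoma line HepG2 with HepG2/metR, a derivative of it made by exposure to metformin, an inhibitor of mitochondrial complex I, for more than 5 months. A further culture of HepG2/metR was treated for 24 h with oxamate, which inhibits lactate dehydrogenase, at 40 mM. Total RNA was sequenced from 1 culture per condition: untreated parental HepG2, HepG2/metR without oxamate, and HepG2/metR with oxamate. Both lines were grown in the same medium with serum, and whether metformin was present in it at harvest is not given in the sources used here. The 10 genes were compared between HepG2/metR and the parental line, to ask how the derived line differs, and between oxamate-treated and untreated HepG2/metR, to ask what follows when lactate production is inhibited.

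With 1 library per condition, no difference below has a replicate check, and no p-value is given. The HepG2/metR library stands in both comparisons, so a deviation of that library alone would enter both, with opposite signs. The number of reads is unknown from these values. The smallest values put the depth of the HepG2/metR library at about 1.21 times, and that of the oxamate library at about 1.24 times, the depth of the parental library.

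The labels give liver cancer cells for all libraries, and the hepatocyte markers differed widely between them. In the parental library 18 of 18 hepatocyte markers were at 1 FPKM or more, with a summed level of 34972 FPKM, against 2 of 18 and 14.1 FPKM in HepG2/metR and 2 of 18 and 11.2 FPKM with oxamate. The hepatocyte transcription factor HNF4A was at 68.7 FPKM in the parental line, 0.0156 in HepG2/metR and 0.0153 with oxamate. Of 14 mesenchymal markers, 9, 11 and 11 were at 1 FPKM or more, with sums of 1638, 2291 and 1739 FPKM. Markers of this list moved in both directions between the lines, 5 past 2-fold higher and 3 lower: VIM, the intermediate filament vimentin, was at 1.23, 1576 and 1140 FPKM, and FN1, fibronectin, at 1503, 45.7 and 93.7 FPKM. Of 10 leukocyte markers, 3, 1 and 1 reached 1 FPKM, with sums of 41.5, 44.2 and 31.9 FPKM, mostly from CD68. In the HepG2/metR libraries the defining transcripts of hepatocytes were thus at or near 0, against the line they are labelled as derived from, and as both comparisons need these libraries no result could be given without them. The part of this difference in the chaperone values was not tested, and metformin exposure, the time in culture and the identity of the cells cannot be told apart in these libraries. Nor can a bulk library tell fewer cells of a type from less RNA per cell.

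Proteins that enter the ER are folded by HSPA5 (BiP, the Hsp70 of the ER), by HSP90B1 (GRP94, its Hsp90), by disulfide isomerases and by the lectin chaperones calnexin and calreticulin. When unfolded protein accumulates, the sensors ATF6, IRE1 and PERK set off the unfolded protein response (UPR). Cleaved ATF6 and spliced XBP1 then enter the nucleus and switch on chaperone genes, ATF6 together with NF-Y through the ER stress response element (ERSE), while PERK lowers translation and raises ATF4. Hepatocytes secrete most plasma proteins and are known for a large ER.

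The letters of these elements were looked for in the RefSeq promoter windows of the 10 genes, to show which members carry them. Windows ran from 250 bases before to 50 bases after each start site (build GRCh38.p14), and both strands were read. An exact ERSE, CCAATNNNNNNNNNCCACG, was found for HSPA5, HSP90B1, XBP1, CALR and CANX, and the shorter ERSE-II, ATTGGNCCACG, for HERPUD1 and SDF2L1. Each match is written 5′ to 3′ on the strand that holds them, with the fixed letters in capitals and the spacer in lower case.
HSPA5 (chr9:125241391-125241409, gene strand): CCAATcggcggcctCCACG
HSP90B1 (chr12:103930216-103930234, gene strand): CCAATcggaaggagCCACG
HSP90B1 (chr12:103930321-103930339, opposite strand): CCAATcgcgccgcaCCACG
XBP1 (chr22:28800603-28800621, gene strand): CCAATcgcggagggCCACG
CALR (chr19:12938384-12938402, opposite strand): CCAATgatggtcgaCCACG
CANX (chr5:179698778-179698796, gene strand): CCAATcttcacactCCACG
HERPUD1 (chr16:56932025-56932035, gene strand): ATTGGgCCACG
SDF2L1 (chr22:21642114-21642124, opposite strand): ATTGGtCCACG

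These letters are rare in promoters. Of 35116 windows in the table, 27 (0.0769%) held an ERSE and 19 (0.0541%) an ERSE-II. HSP90B1 held 2 matches, one on each strand, and the CANX match was a single site that lay in 3 of the 4 windows of that gene. That CANX site spanned the start site of 1 of these windows, at positions -9 to 10. The XBP1 match lay at positions -52 to -34, that of HSPA5 at -66 to -48 and that of CALR, the farthest, at -225 to -207. For PDIA4, DNAJB9 and DNAJC3 no ERSE or ERSE-II was found in these windows. The UPR element TGACGTGG was in 256 of all windows (0.729%) and in those of 0 members. ERSE-II holds CCACG, as ERSE does, but no exact match of one overlapped a match of the other in these genes. A match is a description of the sequence, and binding was not measured here.

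**Figure D1:**
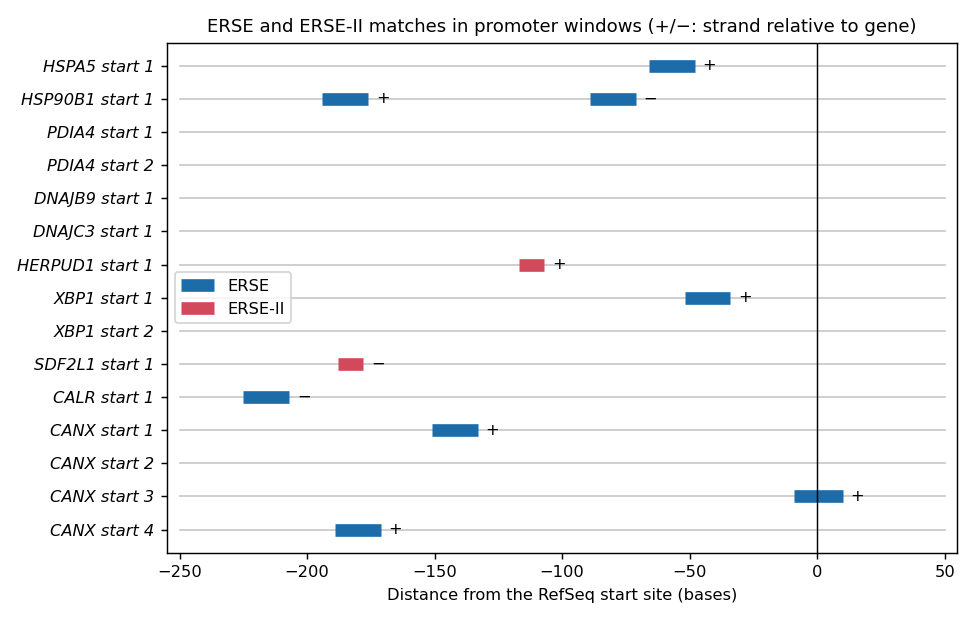
Position of exact ERSE (blue) and ERSE-II (red) matches in the 15 RefSeq promoter windows of the 10 genes, with distance from the start site in bases on the horizontal axis and + or − for the strand relative to the gene. Matches lie in windows of 7 genes, and no window of PDIA4, DNAJB9 or DNAJC3 holds one.

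The 250 bases before the start site are shown for 3 genes that differ in these letters and in their values: HSPA5, with the lowest change under oxamate; XBP1, with the lowest change in HepG2/metR; and DNAJB9, without a match and with the highest change under oxamate. As they were picked by these values, they cannot show a link of the letters with the levels. PDIA4, also without a match, had a change of -0.43 under oxamate. Each is written 5′ to 3′ on the gene's strand, and capitals mark the fixed letters of an ERSE.
HSPA5 (chr9:125241344-125241593, minus strand): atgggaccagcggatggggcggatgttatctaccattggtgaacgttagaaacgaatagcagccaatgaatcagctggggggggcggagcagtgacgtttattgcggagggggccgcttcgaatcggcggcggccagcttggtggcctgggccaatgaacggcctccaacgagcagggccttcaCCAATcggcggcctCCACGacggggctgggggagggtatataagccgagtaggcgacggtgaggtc
XBP1 (chr22:28800570-28800819, minus strand): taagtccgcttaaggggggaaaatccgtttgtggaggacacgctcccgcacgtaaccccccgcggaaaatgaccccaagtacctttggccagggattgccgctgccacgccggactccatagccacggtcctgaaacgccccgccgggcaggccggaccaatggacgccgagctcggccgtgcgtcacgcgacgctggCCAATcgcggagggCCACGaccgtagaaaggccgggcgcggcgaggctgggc
DNAJB9 (chr7:108569624-108569873, plus strand): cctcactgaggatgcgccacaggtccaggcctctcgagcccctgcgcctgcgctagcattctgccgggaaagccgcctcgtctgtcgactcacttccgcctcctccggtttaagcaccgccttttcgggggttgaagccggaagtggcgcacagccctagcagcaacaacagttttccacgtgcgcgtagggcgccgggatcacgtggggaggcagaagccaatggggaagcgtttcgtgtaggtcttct

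As a group the 10 genes were at a lower level in HepG2/metR than in the parental line and lower again with oxamate. Their summed level was 3266 FPKM in the parental library, 2290.2 FPKM in HepG2/metR and 1542 FPKM with oxamate. As a share of all FPKM in the library, that was 0.581%, 0.428% and 0.325%. The summed FPKM of all genes was 562382, 534646 and 473773, so the members' sum was lower by more than the total. The levels, which are per length and can be set beside each other, ran in the parental line from 910.04 FPKM for CALR to 18.3 FPKM for DNAJB9.

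**Figure D2:**
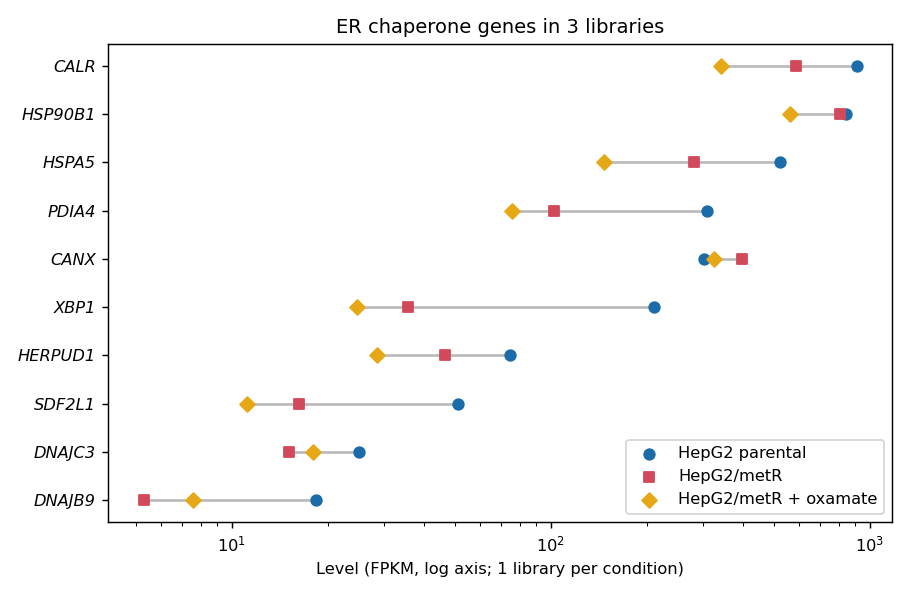
Level of each ER chaperone gene in FPKM (log axis) in the parental (blue circles), HepG2/metR (red squares) and oxamate-treated HepG2/metR (yellow diamonds) libraries, 1 library per condition and no error bars. HSPA5 runs from 522 FPKM in the parental to 147 FPKM in the oxamate library, while DNAJB9 and DNAJC3 are lowest in HepG2/metR and CANX is highest there.

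Among the major chaperones, HSPA5 and HSP90B1 differed from each other. HSPA5 was at 522 FPKM in the parental line, 280 in HepG2/metR and 147 with oxamate. HSP90B1 was at 844, 805 and 562 FPKM. The HSPA5 level was thus highest in the parental line and lowest with oxamate. Its steps were of similar size as folds of FPKM + 1 (1.86 and 1.90), whereas HSP90B1 was nearly level between the untreated lines. The ratio of HSPA5 to HSP90B1, in which the scaling between libraries cancels, was 0.619, 0.348 and 0.261. HSPA5 ranked 152nd, 259th and 433rd of the kept genes by level, and HSP90B1 101st, 106th and 122nd.

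The partners of HSPA5 are J-domain cochaperones, which set its ATPase cycle, and SDF2L1, which is found with it in the ER. DNAJB9 was at 18.3 FPKM in the parental line, 5.31 in HepG2/metR and 7.55 with oxamate. DNAJC3, a cochaperone also known as an inhibitor of PERK, was at 25.1, 15.1 and 18.0 FPKM. Both were thus lowest in HepG2/metR without oxamate. SDF2L1 was at 51.3, 16.3 and 11.2 FPKM, with its lowest value in the oxamate library. The ratio of HSPA5 to DNAJB9 was 28.5 in the parental line, 52.8 in HepG2/metR and 19.4 with oxamate, so the order of this ratio was not that of either gene alone. The ratio of HSPA5 to DNAJC3 was 20.8, 18.6 and 8.18.

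PDIA4, a disulfide isomerase of the ER, was at 309 FPKM in the parental line, 102 in HepG2/metR and 75.5 with oxamate. The parental library stood far above the other two. Of the lectin chaperones, soluble CALR was at 910.04, 586 and 342 FPKM, and membrane-bound CANX was at 302, 398 and 326 FPKM. CALR and CANX, which bind overlapping sets of glycoproteins, therefore came closer in level: the ratio of CALR to CANX was 3.01 in the parental line, 1.47 in HepG2/metR and 1.05 with oxamate.

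XBP1, the transcription factor whose mRNA is spliced by IRE1, was at 211 FPKM in the parental line, 35.7 in HepG2/metR and 24.7 with oxamate. A value per gene does not tell its spliced from its unspliced form. HERPUD1, a membrane component of ER-associated degradation, was at 74.5, 46.4 and 28.6 FPKM. XBP1 ranked 361st of the kept genes in the parental line, 2256th in HepG2/metR and 3022nd with oxamate.

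By level, the order in the parental line was CALR, HSP90B1, HSPA5, PDIA4, CANX, XBP1, HERPUD1, SDF2L1, DNAJC3 and DNAJB9. In HepG2/metR it was HSP90B1, CALR, CANX, HSPA5, PDIA4, HERPUD1, XBP1, SDF2L1, DNAJC3 and DNAJB9, and with oxamate DNAJC3 stood above SDF2L1 and the rest kept that order. Without replicates it cannot be said which neighbours in these orders differ beyond their spread. CANX made up 9.25% of the members' summed FPKM in the parental line, 17.4% in HepG2/metR and 21.1% with oxamate, and HSPA5 16.0%, 12.2% and 9.52%.

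In HepG2/metR against the parental line, XBP1, DNAJB9, SDF2L1 and PDIA4 fell by at least 2-fold, and no member rose by that much. Of all kept genes, 17.6% were at least 2-fold lower and 16.6% at least 2-fold higher. The differences in log2(FPKM + 1) were -2.53 for XBP1 (5.76-fold lower), -1.62 for DNAJB9 (3.07-fold), -1.59 for SDF2L1 (3.02-fold) and -1.59 for PDIA4. The cochaperone DNAJB9 and SDF2L1 thus lay beside PDIA4, and XBP1 lay apart, with 722 kept genes (5.92%) at a lower difference. Differences this large were common between these lines, since 1327 kept genes had a lower value than PDIA4.

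The other 6 members stayed inside 2-fold. HSPA5, the member just inside it, had a difference of -0.89 (1.86-fold lower), DNAJC3 -0.70, HERPUD1 -0.67 and CALR -0.63. HSP90B1 was at -0.07, and its sign turned under 3 other scalings of the libraries (0.087, 0.0057 and 0.0084). CANX, at 0.39, was the member with a higher level in HepG2/metR, 1.31-fold. The median over the 10 genes was -0.80, with 9 below 0 and 1 above, beside a median of 0.01 and a median absolute difference of 0.65 over all kept genes.

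With oxamate, HSPA5, CALR and HERPUD1 fell by at least 1.5-fold, that is by 0.58 on the log2 scale, and no member rose by that much. Of all kept genes, 3.82% were at least 1.5-fold lower and 4.31% at least 1.5-fold higher. The difference was -0.93 for HSPA5 (1.90-fold lower), -0.78 for CALR (1.71-fold) and -0.68 for HERPUD1 (1.60-fold). The fall of HSPA5 was far out among the genes measured, with 81 kept genes (0.664%) at a lower value, while 160 lay below CALR and 276 below HERPUD1. The call for CALR was lost with the libraries scaled to ACTB and EMC7 (-0.48), and that for HERPUD1 under that scaling (-0.39) and with equal library totals (-0.51).

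Just short of 1.5-fold were HSP90B1 and XBP1, both at -0.52, and SDF2L1 at -0.51, followed by PDIA4 at -0.43 and CANX at -0.29. CANX turned to 0.0096 when scaled to ACTB and EMC7. The cochaperones DNAJB9 and DNAJC3 had the opposite sign, with differences of 0.44 (1.36-fold higher) and 0.24 (1.18-fold higher). Scaled to the same total, or to ACTB and EMC7, DNAJB9 passed 1.5-fold, at 0.59 and 0.70, beside 9.70% and 16.7% of all kept genes. The median over the 10 genes was -0.51, with 8 below 0 and 2 above, beside a median of 0.02 and a median absolute difference of 0.21 over all kept genes.

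**Figure D3:**
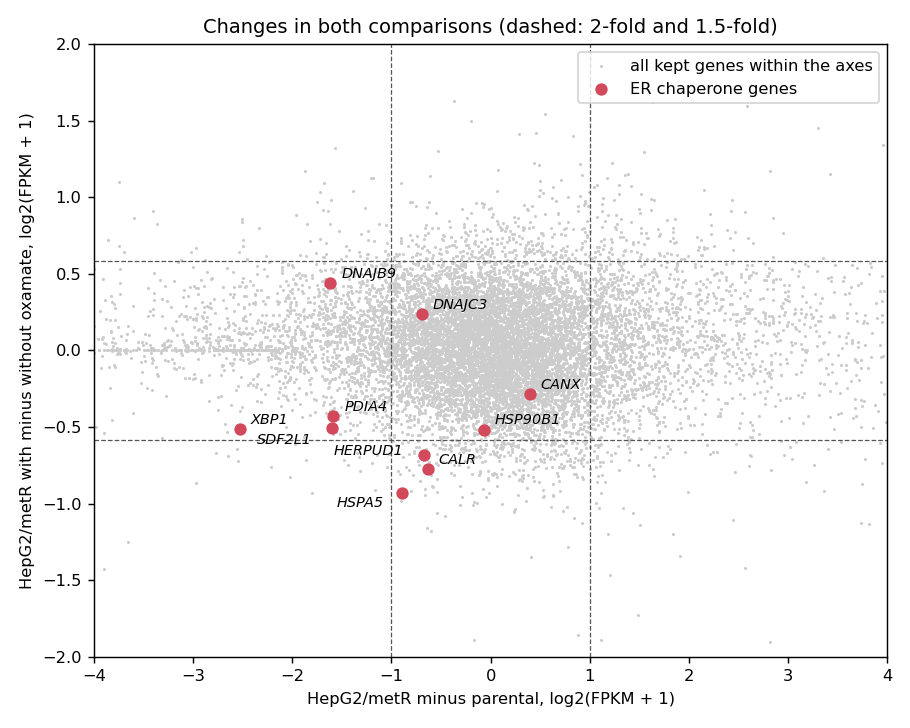
Difference in log2(FPKM + 1) between HepG2/metR and the parental line (horizontal) and between oxamate-treated and untreated HepG2/metR (vertical) for the ER chaperone genes (red) and all kept genes within the axes (grey), with dashed lines at 2-fold and 1.5-fold. The same HepG2/metR library enters both axes with opposite signs. XBP1, DNAJB9, SDF2L1 and PDIA4 lie left of the 2-fold line, and HSPA5, CALR and HERPUD1 below the 1.5-fold line.

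The values of both comparisons can be set side by side, with the HepG2/metR library shared by both. HSPA5 had similar differences in both (-0.89 and -0.93), as did HERPUD1 (-0.67 and -0.68) and CALR (-0.63 and -0.78). XBP1 differed more between the lines than with oxamate (-2.53 and -0.52), and so did PDIA4 (-1.59 and -0.43) and SDF2L1 (-1.59 and -0.51). HSP90B1 differed more with oxamate (-0.07 and -0.52). None of these contrasts between genes could be tested with 1 library per condition.

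Grouped by the promoter letters, the 7 members with an ERSE or ERSE-II lay between -0.93 and -0.29 under oxamate, with a median of -0.52. Past 1.5-fold lower were 3 of the 7 (HSPA5, CALR and HERPUD1), beside 3.82% of all kept genes. The calls of CALR and HERPUD1 depended on the scaling, as given above. The 3 members without a match were at 0.44 (DNAJB9), 0.24 (DNAJC3) and -0.43 (PDIA4). PDIA4 thus lay within the range of the 7, lower than CANX, so the groups overlapped. In HepG2/metR against the parental line the 7 lay between -2.53 and 0.39, with a median of -0.67. The 3 without a match lay between -1.62 and -0.70 there. The grouping was made with the members' values known and has no test. It rests on exact matches, and DNAJC3 holds an ERSE when 1 mismatch in the fixed letters is allowed. As deposited, the 22 other kept genes with an exact ERSE or ERSE-II had a median of -0.08 under oxamate, with 2 past 1.5-fold lower.

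Other scalings moved the members' differences nearly together, against a zero line that depends on the scaling. ACTB, a common reference gene, was at 1310, 963 and 670 FPKM, and EMC7, another reference gene, at 95.1, 117 and 111 FPKM. Upper-quartile scaling moved the median of all kept genes by 0.14 for HepG2/metR against the parental line, and scaling to EMC7 alone by -0.26. For oxamate, scaling to the same total moved it by 0.14 and scaling to ACTB and EMC7 by 0.25. The split of all calls moved with it: under oxamate it was 9.70% higher and 1.57% lower with the same total, 16.7% and 0.894% with ACTB and EMC7, 5.81% and 2.60% with EMC7 alone, and 5.40% and 3.08% with upper quartiles. For HepG2/metR it was 13.2% higher and 23.0% lower with EMC7 alone. Relative to the median of all kept genes, the members' median lay between -0.84 and -0.79 for HepG2/metR under these scalings. For oxamate it lay between -0.54 and -0.50. Each scaling divides all genes of a library by the same factor, so these differences could hardly move.

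**Figure D4:**
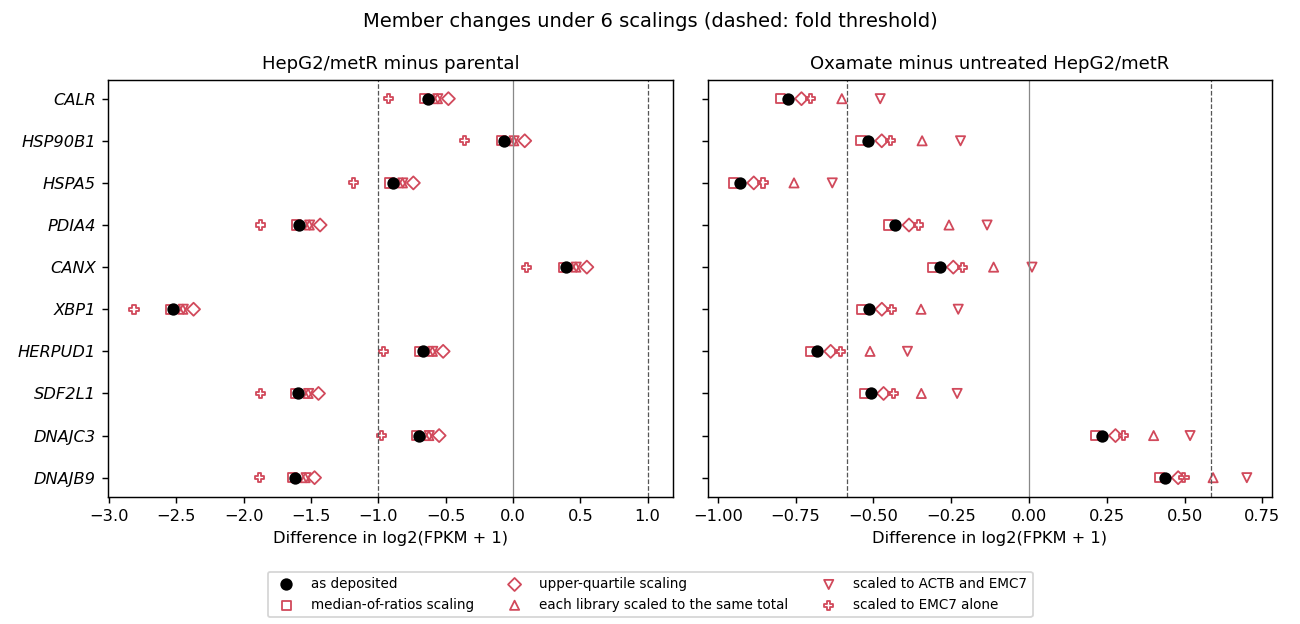
Difference in log2(FPKM + 1) of each ER chaperone gene in both comparisons as deposited (black) and under 5 other scalings of the libraries (open red marks), with dashed lines at the fold threshold. Scaling shifts all members together: HSPA5 under oxamate stays between -0.95 and -0.63, and XBP1 in HepG2/metR between -2.81 and -2.37.

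The lists of the rest of the ER folding machinery had smaller median differences than the 10 members. Some of these lists held genes past the fold in both directions between the lines. For the lists below, the medians were followed under other scalings, and calls of individual genes were not. A call near the fold may be lost there. Of 11 other kept genes of the ER Hsp70 system, 0 were past 2-fold higher and 1 lower in HepG2/metR, with a median of -0.42. The gene that fell was DNAJB11, an ER cochaperone of HSPA5, at 142, 54.7 and 52.8 FPKM. HYOU1, the large ER Hsp70 relative, was at 117, 64.5 and 46.6 FPKM, with differences of -0.85 and -0.46. SDF2, the nearest relative of SDF2L1, had the opposite sign to it between the lines, at 35.1, 68.2 and 61.6 FPKM (0.94 and -0.14). Under oxamate 1 gene of this list, CRELD2, fell past 1.5-fold (20.7 to 12.1 FPKM), and the list's median was -0.11, which turned above 0 with the same total and with ACTB and EMC7.

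Of 17 other kept genes of the disulfide isomerase family, 3 were past 2-fold higher and 2 lower in HepG2/metR, with a median of -0.31. QSOX1, a sulfhydryl oxidase, rose from 9.86 to 178 FPKM, beside TMX3 and ERO1LB, and TXNDC11 fell from 38.5 to 8.61 FPKM, beside TMX4. The abundant members P4HB (759, 390.04 and 282 FPKM), PDIA6 (471, 340 and 249 FPKM) and PDIA3 (275, 219 and 161 FPKM) had the same order of libraries as PDIA4. Their differences between the lines were -0.96, -0.47 and -0.33, smaller than the -1.59 of PDIA4, whereas under oxamate they were -0.47, -0.45 and -0.44, beside -0.43 for PDIA4. Under oxamate 0 genes of this family were past 1.5-fold higher and 2 lower, TMX2 (121 and 73.7 FPKM) and TXNDC5 (155 and 99.4 FPKM). The median was -0.26, which turned above 0 with ACTB and EMC7.

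In the glycoprotein folding cycle, around CALR and CANX, 1 of 7 other kept genes was past 2-fold higher and 3 lower in HepG2/metR, with a median of -0.13 (above 0 with upper quartiles). GANAB, a glucosidase subunit, rose (100.1 and 207 FPKM), and MOGS, the glucosidase that trims first, fell (70.3 and 22.8 FPKM), as did UGGT1 and CLGN. CLGN, a relative of CANX, was at 10.3, 4.51 and 4.27 FPKM, and CALR3, a relative of CALR, stayed under the filter at 0, 0.0630 and 0.0309 FPKM. Under oxamate no gene of this list was past 1.5-fold in either direction, and the median was -0.05, which turned above 0 with the same total, with ACTB and EMC7 and with EMC7 alone. Of 8 prolyl isomerases, 0 rose and 3 fell between the lines (median -0.21), namely FKBP7, FKBP11 and FKBP10 (139 and 66.0 FPKM). Under oxamate 2 rose, FKBP14 and PPIC (31.6 and 50.7 FPKM), and 0 fell, with a median of -0.06 that turned above 0 under the same 3 scalings.

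Around HERPUD1, 23 other kept genes of ER-associated degradation held 0 genes past 2-fold higher and 1 lower between the lines, with a median of -0.22. The gene that fell was SYVN1, the ubiquitin ligase that HERPUD1 binds, at 21.4, 9.51 and 8.80 FPKM. HERPUD2 was at 5.81, 8.02 and 9.90 FPKM, so it had the opposite sign to HERPUD1 in both comparisons (0.41 and 0.27). Under oxamate 1 gene rose past 1.5-fold, EDEM3 (7.48 and 11.9 FPKM), 0 fell, and the median was 0.05. Of 16 genes of the translocon and signal peptidase, 1 rose (SSR3, 82.7 and 188 FPKM) and 1 fell (SEC61B, 379 and 172 FPKM) between the lines, and under oxamate 0 passed the fold either way. Their medians were 0.14 (below 0 with EMC7 alone) and -0.19 (above 0 with ACTB and EMC7).

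The sensors of the UPR differed from each other. EIF2AK3, which encodes PERK, fell between the lines (10.8, 3.35 and 3.94 FPKM). ERN1, which encodes IRE1, was at 2.22, 1.89 and 2.88 FPKM, and ATF6 at 9.85, 11.3 and 10.5 FPKM, neither of them past the fold in either comparison. Over the 16 genes of sensors and proximal factors, 4 were past 2-fold higher and 3 lower between the lines, with a median of 0.13 (below 0 with EMC7 alone). PPP1R15A, which restores translation after PERK signalling, rose from 19.1 to 57.0 FPKM, beside ATF6B, NFYB and DDIT3, and CREB3L2 fell from 28.6 to 10.4 FPKM, beside CREB3L3 and EIF2AK3. Under oxamate 0 were past 1.5-fold higher and 2 lower, with a median of 0.01 (below 0 with median-of-ratios scaling).

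Those 2 genes were ATF4 and DDIT3, of the PERK arm. ATF4, the transcription factor raised by PERK, was at 279 FPKM in the parental line, 290 in HepG2/metR and 180 with oxamate, differences of 0.06 and -0.69. DDIT3 (CHOP), a target of ATF4, was at 25.5, 59.9 and 21.1 FPKM, differences of 1.20 and -1.46. Of 12 further targets of this arm, 5 were past 2-fold higher and 2 lower between the lines, with a median of 0.13 (below 0 with EMC7 alone), and under oxamate 0 were past 1.5-fold higher and 4 lower, with a median of -0.49. ASNS, asparagine synthetase, rose between the lines (33.9 and 89.6 FPKM), beside ATF3, CHAC1, SESN2 and VLDLR, and NUPR1 (51.1 and 0.798 FPKM) and TRIB3 fell. With oxamate DDIT4 fell (26.5 and 4.94 FPKM), beside CHAC1, SESN2 and TRIB3. Under oxamate the median of these targets was thus close to that of the 10 chaperone genes (-0.51), while between the lines the chaperone genes had a median of -0.80.

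Relatives of the members outside the ER were given beside them. The cytosolic Hsp70 HSPA8 was at 861, 967 and 862 FPKM, differences of 0.17 and -0.16 beside -0.89 and -0.93 for HSPA5. The mitochondrial HSPA9 was at 180, 209 and 157 FPKM (0.21 and -0.40). Neither relative of HSPA5 was past the fold in either comparison. The cytosolic HSP90AA1 (827, 832 and 585 FPKM; 0.01 and -0.51) had values close to those of HSP90B1, with HSP90AB1 at -0.25 and -0.44 and the mitochondrial TRAP1 at -0.55 and -0.24. Of 16 cytosolic chaperones, 2 rose (DNAJB6 and BAG3) and 1 fell (HSPA1B) between the lines, and 0 rose and 1 fell (HSPB1) with oxamate. Their medians were -0.06, which turned above 0 with upper quartiles, with the same total and with ACTB and EMC7, and -0.22, which turned above 0 with ACTB and EMC7.

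Among the 5 genes whose pair of differences lay nearest to that of HSPA5, of 6530 kept genes with a mean of at least 10 FPKM over the 3 libraries, were TOMM5, DCTPP1, H2AFX and SLC16A3, at Euclidean distances between 0.146 and 0.201 on the log2 scale. TOMM5, a subunit of the mitochondrial import complex, was at 245, 128 and 74.0 FPKM, and SLC16A3, a lactate transporter, at 353, 215 and 119 FPKM. None of these is an ER chaperone. The nearest members were CALR, at a distance of 0.302, and HERPUD1, at 0.334, and XBP1 was the farthest, at 1.68. Of the 6530 genes, 14 lay nearer to HSPA5 than CALR did, and 19 nearer than HERPUD1. With 3 libraries and 2 differences per gene, a short distance describes these libraries only.

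Reads of some members could be shared with other genes. HSP90B2P, a pseudogene copy of HSP90B1, was at 0.145, 0.650 and 0.416 FPKM, far below the 844, 805 and 562 FPKM of HSP90B1. CBY3, which overlaps CANX, and MIR6515, which overlaps CALR, were listed at 0 in all libraries. HSPA5P1 and XBP1P1, pseudogene copies of HSPA5 and XBP1 by name, had no value in these data. Nor had pseudogenes that overlap DNAJC3 and CANX, so sharing of reads with any of these could not be checked.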

How the data were processed

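RNA from 3 cultures, 1 per condition, was sequenced by the authors on an Illumina NextSeq instrument. The submitters' processing notes name STAR 2.5.1b, FastQC 0.11.5, Cufflinks 2.2.1 and build hg19, without their roles. The authors deposited log2 values, log2(FPKM + 1), for 25270 rows per library; FPKM was recovered as 2 to that value minus 1, and no read counts were used. Rows whose symbol had turned into a date (28) were left out.

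Genes with a mean of at least 1 FPKM were kept. Differences of the deposited log2 values were compared with 2-fold (HepG2/metR against parental) and 1.5-fold (oxamate), the folds of the study's methods; a pseudocount of 1 understates the change of low genes. No test was possible with 1 library per condition. The members, lists and motifs were chosen with earlier results of these data known. All members were named; from each other list, the genes with the largest rise and fall at a mean of at least 10 FPKM, relatives of members, UPR sensors, ATF4 and DDIT3, and the 5 genes most like HSPA5, of which 1 is not reported here. Other genes of a list past the fold were named after their values were seen. Alternatives were other pseudocounts, filters, folds and scalings, and totals without small-RNA genes or hepatocyte markers. Promoter sequences were from RefSeq (GRCh38.p14), matched by symbol for all 10 members; 1 other gene, ERO1LB, was matched by its RefSeq synonym. Protein features were not analysed here. On simulated data with known changes, only the difference and its count past 2-fold were tried, and the other steps were not. Scripts used Python 3.11, numpy 2.4.6, pandas 2.3.3 and matplotlib 3.10.9.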

Additional observations from a re-analysis of the deposited data

How the results depend on the processing

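No paired analysis was possible because each condition has 1 library, and no library could be left out. There were 20 member differences under 9 alternatives each. Of these values, 170 kept their direction and side of the fold, 4 reversed, 3 came past the fold and 3 no longer passed it. The 170 include values under other filters on low values, which every member passed and which could not move a member difference. HSP90B1 in HepG2/metR reversed to 0.087 with upper-quartile scaling, 0.0057 with the same total and 0.0084 with ACTB and EMC7, and CANX under oxamate to 0.0096 with ACTB and EMC7. Under oxamate 1 member (DNAJB9) was past 1.5-fold higher with the same total, beside 9.70% of all kept genes, and with ACTB and EMC7, beside 16.7%. Past it lower, in place of 3, were 2 members (HSPA5 and CALR) with the same total, beside 1.57% of all kept genes. With ACTB and EMC7 it was 1 member (HSPA5), beside 0.894%. At 1.5-fold, 8 members were lower in HepG2/metR (27.1% of all kept genes), and at 2-fold 0 were lower under oxamate (0.525%). Scaling to EMC7 alone, chosen after seeing the data because ACTB differed between libraries, gave a member median of -1.08 in HepG2/metR. Past 2-fold lower there were 5 members, HSPA5 (-1.19) among them, beside 23.0% of all kept genes. The members' share of summed FPKM was 0.589%, 0.432% and 0.333% without small-RNA genes, and 0.619% in the parental library without hepatocyte markers. Other pseudocounts left the members' counts at 4 and 3 lower and 0 higher, and other filters on low values could not change them. These shifts follow from the scaling factors themselves; which scaling is right was not tested. Low FPKM values, such as those of DNAJB9, rest on fewer reads, whose number is unknown.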

Other observations

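Beyond the 10 chaperone genes, 37 genes in the promoter table held an ERSE or ERSE-II, and 22 of them were kept; this group was described after the values were seen. Between the lines 11 of the 22 had a higher and 11 a lower level in HepG2/metR, with a median of -0.05. Beside 16.6% and 17.6% of all kept genes, 4 of the 22 were past 2-fold higher and 3 lower. Those that rose were SYNPO (1.32 and 7.58 FPKM), ERO1LB, an ER oxidoreductase (1.19 and 4.31 FPKM), TRIM5 (7.92 and 18.4 FPKM) and PLS3 (60.4 and 128 FPKM), an actin-bundling protein. Those that fell were NAV2 (9.84 and 3.17 FPKM), SHCBP1 (21.4 and 10.05 FPKM) and TMEM120A (24.8 and 11.8 FPKM). Under oxamate 6 were higher and 16 lower, with a median of -0.08, while 45.6% of all kept genes were lower. Beside 4.31% and 3.82% of all kept genes, 0 of the 22 were past 1.5-fold higher and 2 lower. The 2 were CRELD2 (20.7 and 12.1 FPKM), an ER protein, and RUVBL2 (145 and 95.4 FPKM), an ATPase of chromatin remodelling complexes. All values of these 22 genes are as deposited, and they were not followed under other scalings. For oxamate the median of all kept genes moved by 0.14 with the same total and by 0.25 with ACTB and EMC7. The group's median, its signs and calls near the fold, such as that of RUVBL2 (-0.60), may change there. The group also holds the ER chaperones HYOU1 (differences of -0.85 and -0.46) and PDIA6 (-0.47 and -0.45), ALG12 (-0.76 and 0.31), SERP1 (-0.64 and -0.12) and FICD, which modifies HSPA5 (0.14 and -0.07). An ERSE with at most 1 mismatch in its fixed letters was in 545 of all windows (1.55%) and in those of 8 of the 10 chaperone genes, PDIA4 and DNAJB9 being without one.

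Mitochondrial chaperones, of a compartment outside the ER, were also lower by their median. Of 10 genes, 0 were past 2-fold higher and 2 lower (HSPE1 and DNAJA3) in HepG2/metR, with a median of -0.54, and under oxamate 0 were past 1.5-fold in either direction, with a median of -0.23 (above 0 with ACTB and EMC7). HSPE1, the cochaperonin of mitochondrial HSPD1, was at 1297 FPKM in the parental line, 468 in HepG2/metR and 325 with oxamate, and HSPD1 at 1262, 633 and 568 FPKM.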
